A study of Mus musculus with 8 samples.

Results

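The genes described here are 43 regulators of chromatin and DNA methylation, taken by symbol from a list of DNA methylation, Polycomb, MLL, histone demethylase, acetyltransferase and remodelling genes. All 43 were found among the 48795 genes of the deposited count table, and all 43 passed the filter on low counts that left 14178 genes to test. The libraries came from bone marrow LSK cells (negative for lineage markers, positive for Sca-1 and c-Kit), where the blood stem cells of the mouse are found. CPM are counts scaled per 1000000 by TMM library sizes, and log2 fold changes are Sirt1-deleted over control. The value after ± is the standard error (SE) for a log2 fold change and the SD between libraries for a level or ratio.

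There were 4 libraries from mice labelled SIRT1 deleted (cre+) and 4 from mice labelled control (cre-), each described as a biological replicate. All mice were of the C57BL/6 strain and all carried chronic myeloid leukaemia (CML) induced for 10 weeks, so both groups are leukaemic and neither is a healthy control. The promoter that drives Cre, the deleted exons of Sirt1, the means of inducing the leukaemia and the age and sex of the mice are not stated in the labels. Titles of Sirt1-deleted samples start with 3 or 4 and those of controls with 1 or 2, so whatever that digit stands for cannot be told apart from genotype. The letter after it occurs once in each group, and its meaning is not stated.

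Chromatin regulators write, read and erase marks on DNA and histones. DNA methyltransferases methylate CpG sites and TET enzymes oxidise the methyl group. Polycomb repressive complexes (PRC2 methylates histone H3 and PRC1 ubiquitinates histone H2A) silence genes, MLL-type complexes methylate histone H3 at active promoters and enhancers, and acetyltransferases and remodellers open chromatin. Many of these genes set the balance of self-renewal and differentiation in blood stem cells, and DNMT3A, TET2 and ASXL1 are the genes most often mutated in human clonal haematopoiesis. SIRT1 is an NAD-dependent deacetylase whose substrates include histones and the methyltransferase SUV39H1.

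Totals over genes were 24648721 to 34280925 counts in Sirt1-deleted libraries and 18252562 to 28883834 in controls. Control 2 and Sirt1-deleted 1 stood apart. They had the fewest detected genes (15316 and 16154, against 16670 to 20342 in the others). The first principal component (34.6% of variance) set control 2 off from the rest while the second (20.4%) set off Sirt1-deleted 1. Detected genes were 16154, 19534, 20062 and 20342 in Sirt1-deleted 1 to 4 and 17407, 15316, 16670 and 19917 in controls 1 to 4. Sirt1-deleted 2, 3 and 4 were above controls 1, 2 and 3, so detection went in part with genotype. Sirt1 itself was at 17.0, 10.4, 8.89 and 7.44 CPM in Sirt1-deleted 1 to 4, against 16.6, 17.9, 8.14 and 9.57 CPM in controls 1 to 4 (log2 fold change -0.26 ± 0.39, edgeR adjusted p = 0.797). Reads were summed over all exons of the gene, so this value cannot check the deletion. Of the sort markers, Kit was at 108, 141, 142 and 157 CPM in the Sirt1-deleted libraries and 34.4, 37.1, 44.0 and 32.4 CPM in the controls and was among the 12 genes called (log2 fold change 1.89 ± 0.17, edgeR adjusted p = 0.0145). Ly6a, which encodes Sca-1, was at 198, 119, 224 and 222 CPM in the Sirt1-deleted libraries and 780.2, 258, 232 and 350.0 CPM in the controls (log2 fold change -1.09 ± 0.40, edgeR adjusted p = 0.228). The defining lineage genes were low, with Itgam at 3.46 to 29.5 CPM, Ly6g at 0.464 to 13.2 and Cd3e at 0.477 to 39.6 over all libraries. The 10 markers of B and plasma cells, which LSK cells are not known for, nevertheless summed to 5328 to 51506 CPM in Sirt1-deleted libraries and 8452 to 22071 CPM in controls.

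None of the 43 regulators was called in Sirt1-deleted LSK cells at an adjusted p under 0.05 by the edgeR quasi-likelihood test (background 0.0846% of the 14178 genes, 12 calls). The log2 fold change was positive for 33 of the 43 (background 53.9%), with a median of 0.31 where the median of all genes tested was 0.06, and ran from -0.69 (Bmi1) to 1.51 (Cbx7). At an unadjusted p under 0.05 there were 12 members higher (background 7.55%) and 1 lower (background 8.6%). The 12 were Bap1, Cbx8, Ehmt1, Ezh1, Kat6a, Kat2a, Cbx2, Dnmt3a, Kmt2a, Cbx7, Men1 and Smarca4, and the 1 was Bmi1. In 9 members every Sirt1-deleted library was above every control (background 6.64%) and in 1, Bmi1, every Sirt1-deleted library was below (background 6.44%). DESeq2 called 5 members higher (background 3.08%), Bap1, Cbx8, Ezh1, Kat6a and Ehmt1, and limma-voom with quality weights called 4 (background 2.65%), Bap1, Dnmt3a, Ezh1 and Ehmt1. Without control 2 and Sirt1-deleted 1 edgeR called Dnmt3a alone (background 0.521% higher), 15 members lay higher in every Sirt1-deleted library left (background 17.2%) and 1 lower (background 15.1%), and the median log2 fold change was 0.30.

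**Figure D1:**
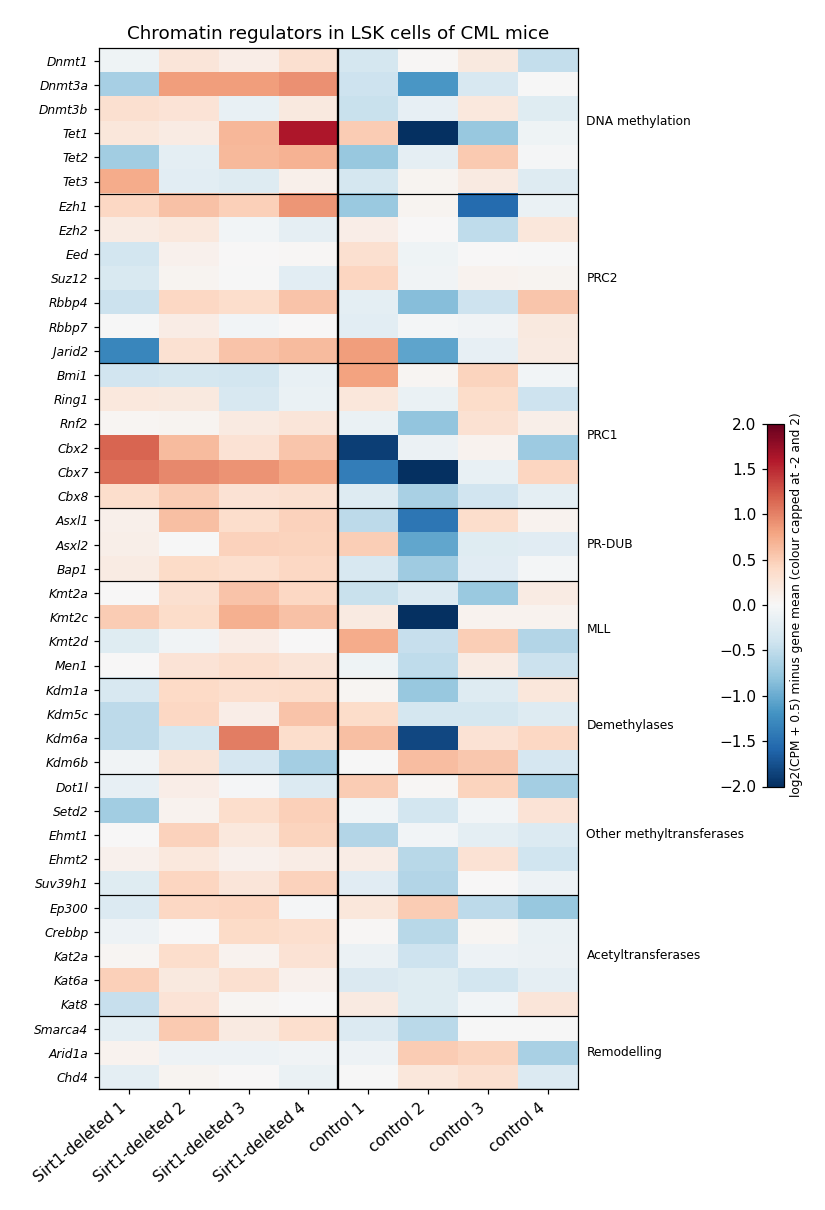
Level of each of the 43 regulators in each library, as log2(CPM + 0.5) minus the mean of that gene over the 8 libraries, with genes in rows by role and Sirt1-deleted libraries left of the controls. Sirt1-deleted 2, 3 and 4 are mostly red, and control 2, which holds the lowest value of 18 members, is the bluest column.

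The shift of the members differed between libraries of the same group. The median over members of log2(CPM + 0.5), centred per gene, was -0.0013, 0.26, 0.25 and 0.33 in Sirt1-deleted 1 to 4 and -0.088, -0.35, 0.015 and -0.11 in controls 1 to 4. Sirt1-deleted 1 lay among the controls and the other 3 above them. Over all genes tested the same medians were -0.00013, 0.086, 0.10 and 0.10 in Sirt1-deleted 1 to 4 and 0.028, -0.076, 0.015 and 0.060 in controls 1 to 4. Control 2 held the lowest value of 18 members, whereas Sirt1-deleted 4 held the highest of 10.

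Over all genes tested the change rose with exonic length. The members are long genes, with a median exonic length of 7.38 kb against 3.89 kb for all genes tested. Of the members, 27 fall in the longest quartile of genes (over 6.26 kb). The median log2 fold change of all genes tested was -0.27 in the shortest quartile, -0.0048 in the second, 0.16 in the third and 0.25 in the longest. The members' median was 0.049 in the second quartile, 0.31 in the third and 0.31 in the longest, and no member fell in the shortest. By GC content the members' medians were 0.15, 0.34, 0.34 and 0.30 from the lowest quartile to the highest. Those of all genes tested were 0.072, 0.094, 0.073 and -0.0060. With the trend on length and GC content removed from each library the median of all genes moved to -0.20 and that of the members to -0.09, a difference of 0.10, where it was 0.25 before. At an unadjusted p under 0.05 no member was then higher (background 2.57%) and 5 were lower (background 10.2%), and edgeR called no gene in that fit. Values with the trend removed are given below relative to the median of all genes in that fit, unless stated otherwise.

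**Figure D2:**
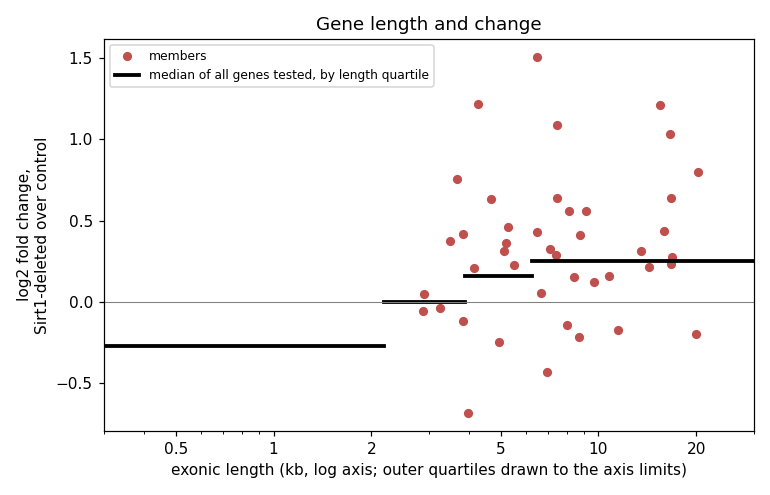
Log2 fold change of each member (points, Sirt1-deleted over control) against exonic length in kb on a log axis, with the median of all genes tested in each length quartile as bars. The bars climb from -0.27 to 0.25 with length, and most members lie over the right-hand bars, scattered to both sides.

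The summed levels of cell type markers were compared by their ranges, with no test. The 14 stem cell markers summed to 792 to 1178 CPM in Sirt1-deleted libraries and 484 to 704 CPM in controls, without overlap. Cd34 made a large share of these sums. Without Cd34 the ranges were 373 to 587 CPM in Sirt1-deleted libraries and 197 to 476 CPM in controls and overlapped. The top of that control range was control 1, where Gata2 was at 361 CPM, against 96.1 to 119 CPM in the other controls. Of the 13 stem cell markers tested, 11 had positive log2 fold changes (background 53.9%), with a median of 1.18. The 9 markers of granulocyte-monocyte progenitors summed to 7920.5 to 14175 CPM in Sirt1-deleted libraries and 12209 to 24934 CPM in controls, the 10 neutrophil markers to 1231 to 2838 CPM in Sirt1-deleted libraries and 2111 to 5489 CPM in controls, the 8 mast cell and basophil markers to 303 to 1107 CPM in Sirt1-deleted libraries and 1029.7 to 5785 CPM in controls and the 7 megakaryocyte markers to 204 to 366 CPM in Sirt1-deleted libraries and 83.7 to 294 CPM in controls, all with overlap. The 10 T and NK markers summed to 472 to 543 CPM in Sirt1-deleted libraries and 642 to 788 CPM in controls, without overlap, most of it from Nkg7, at 406 to 491 CPM in Sirt1-deleted libraries and 503 to 614 CPM in controls; without it the sums were 7.36 to 108 CPM in Sirt1-deleted libraries and 124 to 259 CPM in controls. The 9 erythroid markers in the table summed to 5.87 to 62.3 CPM in Sirt1-deleted libraries and 7.34 to 120.4 CPM in controls, with overlap. The 15 proliferation genes overlapped, at 3882 to 4256 CPM in Sirt1-deleted libraries and 3483 to 4414 CPM in controls. Positive log2 fold changes were also counted in these lists (background 53.9%). They were 1 of 9 granulocyte-monocyte progenitor markers tested (median -1.16), 1 of 10 neutrophil (-1.15) and 0 of 8 mast cell and basophil markers (-1.57). T and NK markers had 0 of 10 (-1.06) and megakaryocyte markers 6 of 6 (1.51). B and plasma cell markers had 7 of 10 (0.19), erythroid markers 1 of 4 (-0.92) and proliferation genes 11 of 15 (0.13). Fewer cells of a type and less RNA per cell cannot be told apart in such bulk samples, and the part of these markers in the results below was not tested.

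**Figure D3:**
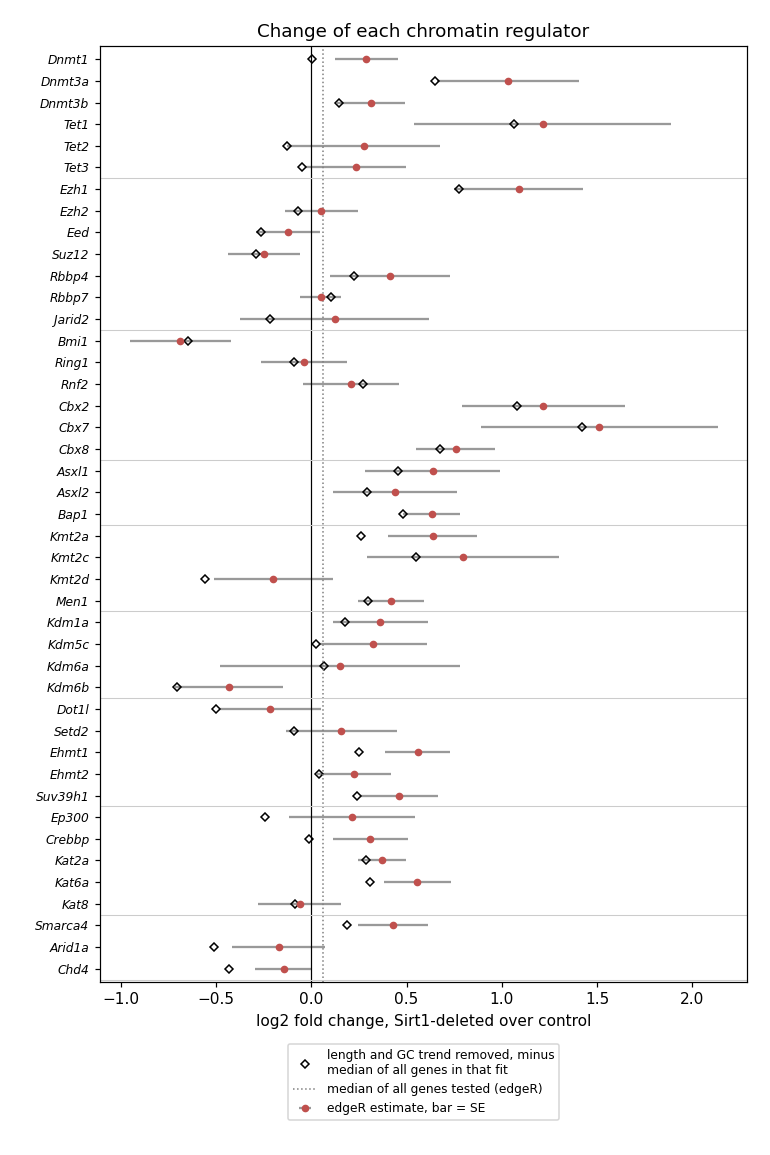
Log2 fold change of each regulator with its SE (red, edgeR), and the estimate with the length and GC trend removed, relative to the median of all genes in that fit (open diamonds). The dotted line is the median of all genes tested, 0.06; most red points lie right of it, and most diamonds lie left of their red point.

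A feature the members share is a promoter rich in CpG, the dinucleotide that DNA methyltransferases act on. RefSeq windows (GRCm38.p6) from 250 bases before to 50 after the start were matched for 40 of the 43, taking the window nearest the gene start in the annotation, and for 10021 of the genes tested. Of the members, 9 had several RefSeq starts, and for Tet1, Tet3 and Cbx7 the window lay over 2000 bases from the annotated start. The observed over expected CpG ratio exceeded 0.6 in 36 of the 40 (90%), against 71.7% of the genes tested, with a median of 0.857 against 0.765. GC content had a median of 67.2% against 60.7%. Dnmt1 was lowest at 0.101 in the window used, with 2 CpG, but had 33 CpG and a ratio of 0.91 at another of its starts. Windows are shown for 5 genes on which the results turn, with every CpG in capitals. Ezh1 (chr11:101226414-101226713, minus strand) and Ezh2 (chr6:47594981-47595280, minus) are the paralogous PRC2 enzymes, Cbx8 (chr11:119040864-119041163, minus) and Bmi1 (chr2:18676768-18677067, plus) are PRC1 subunits whose values lay in opposite directions, and Bap1 (chr14:31251239-31251538, plus) had the smallest p of the members.
Ezh1: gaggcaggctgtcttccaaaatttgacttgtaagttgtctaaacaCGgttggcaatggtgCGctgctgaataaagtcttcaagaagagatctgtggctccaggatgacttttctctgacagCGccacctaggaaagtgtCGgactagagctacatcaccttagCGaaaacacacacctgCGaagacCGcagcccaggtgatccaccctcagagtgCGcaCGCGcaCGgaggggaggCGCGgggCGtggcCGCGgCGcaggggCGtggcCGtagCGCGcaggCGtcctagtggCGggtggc
Ezh2: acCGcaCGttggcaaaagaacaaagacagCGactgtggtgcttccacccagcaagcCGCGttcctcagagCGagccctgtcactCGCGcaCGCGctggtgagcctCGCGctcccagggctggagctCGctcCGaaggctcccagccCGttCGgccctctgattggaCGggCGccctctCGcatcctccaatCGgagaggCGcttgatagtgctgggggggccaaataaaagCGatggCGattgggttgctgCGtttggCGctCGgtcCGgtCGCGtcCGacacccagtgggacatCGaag
Cbx8: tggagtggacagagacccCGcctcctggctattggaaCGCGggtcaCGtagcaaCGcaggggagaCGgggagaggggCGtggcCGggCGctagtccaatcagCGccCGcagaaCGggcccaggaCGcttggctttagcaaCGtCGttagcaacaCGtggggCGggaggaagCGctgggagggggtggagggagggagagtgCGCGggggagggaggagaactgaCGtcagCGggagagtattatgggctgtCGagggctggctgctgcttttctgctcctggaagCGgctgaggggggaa
Bmi1: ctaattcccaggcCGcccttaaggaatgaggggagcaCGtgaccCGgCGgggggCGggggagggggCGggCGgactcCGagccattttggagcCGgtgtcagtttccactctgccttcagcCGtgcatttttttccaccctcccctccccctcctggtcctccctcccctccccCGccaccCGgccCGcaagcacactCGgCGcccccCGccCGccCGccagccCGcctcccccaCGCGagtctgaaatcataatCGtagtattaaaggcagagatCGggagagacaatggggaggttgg
Bap1: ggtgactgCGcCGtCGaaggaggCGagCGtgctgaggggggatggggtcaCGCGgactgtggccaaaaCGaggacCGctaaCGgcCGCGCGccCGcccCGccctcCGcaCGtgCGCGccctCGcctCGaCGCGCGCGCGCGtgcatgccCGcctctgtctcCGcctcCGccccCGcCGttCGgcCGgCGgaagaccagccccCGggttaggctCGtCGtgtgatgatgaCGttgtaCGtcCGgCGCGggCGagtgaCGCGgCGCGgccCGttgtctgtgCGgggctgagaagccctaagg
These hold 23 CpG in Ezh1, 31 in Ezh2, 24 in Cbx8, 23 in Bmi1 and 50 in Bap1. The letters CCAAT, searched on both strands, were in 16 of 40 member windows (40%) and in 38.9% of those of the genes tested. An E2F motif (TTTGGCGC, TTTCGCGC or GGCGGGAA on either strand) was in the windows of Ezh2 and Asxl1, 2 of the 40, and in 5.81% of the genes tested.

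Among the DNA methylation genes, the maintenance enzyme gene Dnmt1 had the highest level. Of the methyltransferase genes in that set, the de novo enzyme gene Dnmt3a had the largest estimate. Dnmt3a (ENSMUSG00000020661.15, chromosome 12, 3806007 to 3914443, GRCm38) was at 36.4, 104, 104 and 110.4 CPM in Sirt1-deleted 1 to 4, against 43.4, 25.8, 46.6 and 57.6 CPM in controls 1 to 4. Sirt1-deleted 2, 3 and 4 were each above every control, and Sirt1-deleted 1 lay within their range. The difference was not called (log2 fold change 1.03 ± 0.37, edgeR adjusted p = 0.223). Without Sirt1-deleted 1 it was 1.25 (adjusted p = 0.0458) and without both libraries that stood apart 1.07 (adjusted p = 0.0439), both called by edgeR, so this call turns on 1 library. DESeq2 gave an adjusted p of 0.054 and limma-voom 0.0335 with all 8, and the trend-removed value was 0.65. Its paralogue Dnmt3b was at 105, 102, 75.9 and 96.9 CPM in the Sirt1-deleted libraries and 61.5, 75.3, 97.9 and 70.9 CPM in the controls, with overlap (log2 fold change 0.31 ± 0.18, edgeR adjusted p = 0.441).

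Dnmt1 was at 280.2, 352, 324 and 371 CPM in the Sirt1-deleted libraries and 233, 301, 339 and 213 CPM in the controls, overlapping groups (log2 fold change 0.29 ± 0.17, edgeR adjusted p = 0.443). The 3 TET genes, whose enzymes start the removal of DNA methylation, overlapped between groups. Tet1 was at 8.31, 7.89, 11.3 and 22.5 CPM in the Sirt1-deleted libraries and 10.2, 0.973, 3.93 and 6.54 CPM in the controls. It was high in Sirt1-deleted 4 and low in control 2 (log2 fold change 1.21 ± 0.68, edgeR adjusted p = 0.426), and the estimate was 0.74 without Sirt1-deleted 4 and 0.83 without control 2. Tet2 averaged 18.7 ± 8.22 CPM in Sirt1-deleted libraries and 15.5 ± 5.78 CPM in controls (log2 fold change 0.27, edgeR adjusted p = 0.790; n = 4 each). Tet3 averaged 34.1 ± 12.02 CPM in Sirt1-deleted libraries and 29.0 ± 5.14 CPM in controls (log2 fold change 0.23, edgeR adjusted p = 0.723). All 6 genes of this set had positive log2 fold changes (background 53.9%), with a median of 0.30. With the trend taken out, 4 of the 6 lay above the median of all genes.

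Within PRC2, which methylates histone H3 through EZH1 or EZH2, Ezh1 was higher in every Sirt1-deleted library and Ezh2 was not. Ezh1 (ENSMUSG00000006920.14, chromosome 11, 101191115 to 101226463) was at 37.3, 42.3, 39.1 and 51.6 CPM in Sirt1-deleted 1 to 4, against 16.5, 29.0, 9.25 and 25.3 CPM in controls 1 to 4. These are 42.6 ± 6.39 CPM in Sirt1-deleted libraries and 20.003 ± 8.89 CPM in controls (SD, n = 4 each), a 2.13-fold difference that edgeR did not call (log2 fold change 1.09 ± 0.34, edgeR adjusted p = 0.173). DESeq2 and limma-voom called it (adjusted p = 0.0347 and 0.036), and without control 2 and Sirt1-deleted 1 the log2 fold change was 1.34 (edgeR adjusted p = 0.101). With the trend removed it was 0.77. Ezh2, the main enzyme of dividing cells, was at 62.2, 64.2, 53.3 and 48.5 CPM in the Sirt1-deleted libraries and 60.7, 55.8, 38.7 and 64.7 CPM in the controls, with groups that overlapped throughout (log2 fold change 0.054 ± 0.19, edgeR adjusted p = 0.923).

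The core subunit genes Eed and Suz12, on which the activity of the complex depends, had slightly negative values that overlapped. Eed averaged 47.6 ± 6.39 CPM in Sirt1-deleted libraries and 51.8 ± 6.92 CPM in controls (n = 4 each), with a log2 fold change of -0.12 (edgeR adjusted p = 0.773). Suz12 averaged 23.9 ± 2.78 CPM in Sirt1-deleted libraries and 28.4 ± 4.48 CPM in controls (log2 fold change -0.25, edgeR adjusted p = 0.574). Rbbp7, a histone-binding chaperone shared with other complexes, had the highest level per length of all members, 110.3 ± 6.82 in Sirt1-deleted libraries and 107 ± 12.6 in controls in CPM per kb of exon (log2 fold change 0.049 ± 0.11). Its relative Rbbp4 averaged 262 ± 70.4 CPM in Sirt1-deleted libraries and 197 ± 84.9 CPM in controls (log2 fold change 0.41 ± 0.32, edgeR adjusted p = 0.581). Genes on the opposite strand overlap 18% of the exonic bases of Rbbp4, and the kit marks no strand. The accessory subunit gene Jarid2 was at 10.1, 31.7, 38.2 and 40.05 CPM in the Sirt1-deleted libraries and 46.3, 12.1, 22.8 and 29.0 CPM in the controls (log2 fold change 0.12 ± 0.50, edgeR adjusted p = 0.931), with Sirt1-deleted 1 and control 2 the lowest of their groups.

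In PRC1, 3 CBX reader genes were higher and Bmi1 was lower in every Sirt1-deleted library than in every control (background 6.64% and 6.44%). CBX proteins bind the histone mark that PRC2 makes, and Cbx2, Cbx7 and Cbx8 encode alternative subunits of the same complex. Cbx2 (ENSMUSG00000025577.7, chromosome 11, 119022962 to 119031270) was at 41.6, 28.6, 22.5 and 27.2 CPM in Sirt1-deleted 1 to 4, against 4.60, 16.9, 19.3 and 10.8 CPM in controls 1 to 4 (log2 fold change 1.22 ± 0.43, edgeR adjusted p = 0.214). Cbx7, the CBX protein best known for stem cell self-renewal, was at 25.3, 22.8, 21.8 and 19.99 CPM in Sirt1-deleted 1 to 4, against 4.13, 1.44, 10.3 and 15.7 CPM in controls 1 to 4 (log2 fold change 1.51 ± 0.62, edgeR adjusted p = 0.278). For both the groups do not overlap, but controls varied widely, and Cbx7 had 40 counts in control 2 against 96 to 332 in the other controls and a log2 fold change of 1.12 without that library.

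Cbx8 (ENSMUSG00000025578.9, chromosome 11, 119036305 to 119040969) was tighter, at 20.4, 22.8, 19.5 and 20.02 CPM in Sirt1-deleted 1 to 4, against 13.2, 9.98, 12.02 and 13.8 CPM in controls 1 to 4. That is 20.7 ± 1.47 CPM in Sirt1-deleted libraries and 12.2 ± 1.69 CPM in controls (SD, n = 4 each), a 1.69-fold difference (log2 fold change 0.76 ± 0.21, edgeR adjusted p = 0.141). DESeq2 called it (adjusted p = 0.00823) and limma-voom did not (0.0598). Cbx2 and Cbx8 are neighbours on chromosome 11. With the trend removed the 3 members were at 1.08 (Cbx2), 1.42 (Cbx7) and 0.67 (Cbx8).

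Bmi1 (ENSMUSG00000026739.13, chromosome 2, 18677018 to 18686629), the PRC1 subunit that adult blood stem cells need for self-renewal, was at 10.4, 10.6, 10.48 and 12.4 CPM in Sirt1-deleted 1 to 4, against 24.5, 14.1, 18.9 and 13.3 CPM in controls 1 to 4. All Sirt1-deleted libraries lay below all controls, though control 4 came within 1 CPM of Sirt1-deleted 4. The log2 fold change was -0.69 ± 0.27 (edgeR adjusted p = 0.254, DESeq2 0.0925, limma-voom 0.138), and no tool called it. It kept its sign in all 17 alternatives, from -0.85 (trend removed, not relative to all genes) to -0.52. Relative to the median of all genes it was -0.65 with the trend removed. The ubiquitin ligase genes Ring1 and Rnf2, which form the catalytic core with Bmi1, overlapped between groups. Ring1 averaged 36.8 ± 6.59 CPM in Sirt1-deleted libraries and 37.8 ± 9.15 CPM in controls (log2 fold change -0.040, edgeR adjusted p = 0.951) and Rnf2 26.9 ± 1.86 CPM in Sirt1-deleted libraries and 23.3 ± 7.08 CPM in controls (log2 fold change 0.21, edgeR adjusted p = 0.739).

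**Figure D4:**
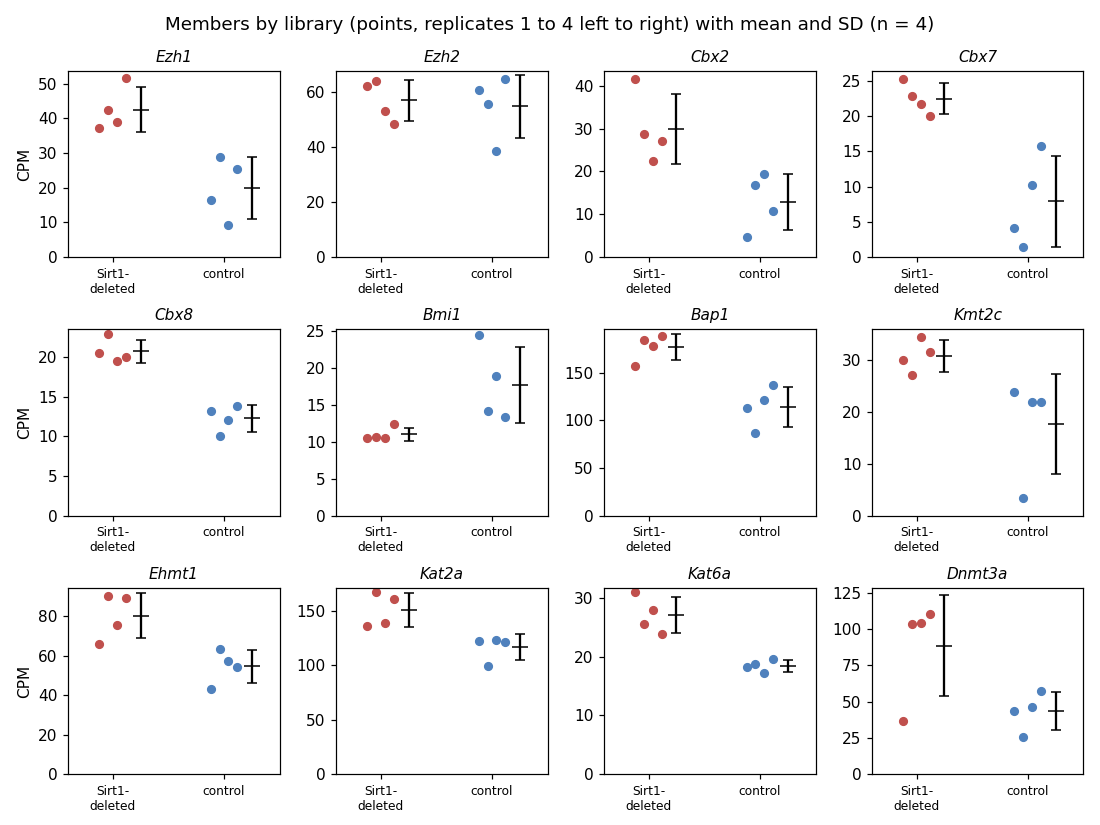
CPM of 12 members in each library (points) with the mean and SD of each group (black, n = 4), Sirt1-deleted left of control. Ezh1, Cbx2, Cbx7, Cbx8, Bap1, Kmt2c, Ehmt1, Kat2a and Kat6a lie wholly higher in Sirt1-deleted libraries and Bmi1 wholly lower, while Ezh2 overlaps and Dnmt3a has 1 low Sirt1-deleted library.

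The deubiquitinase BAP1 removes the H2A mark that PRC1 writes and works with ASXL proteins. Bap1 (ENSMUSG00000021901.10, chromosome 14, 31251450 to 31259944) had the smallest p of all members. It was at 157, 184, 178 and 188 CPM in Sirt1-deleted 1 to 4, against 113, 86.2, 121 and 137 CPM in controls 1 to 4. The lowest Sirt1-deleted library was above the highest control, with means of 177 ± 13.7 CPM in Sirt1-deleted libraries and 114 ± 21.2 CPM in controls (SD, n = 4 each) and a 1.55-fold difference (log2 fold change 0.63 ± 0.15, edgeR adjusted p = 0.118). DESeq2 and limma-voom called it (adjusted p = 0.00566 and 0.0195), and with the trend removed it was 0.48. Asxl1 averaged 59.0 ± 8.47 CPM in Sirt1-deleted libraries and 38.0 ± 18.2 CPM in controls (log2 fold change 0.64 ± 0.35, edgeR adjusted p = 0.424) and Asxl2 26.2 ± 4.30 CPM in Sirt1-deleted libraries and 19.3 ± 8.42 CPM in controls (log2 fold change 0.44 ± 0.32, edgeR adjusted p = 0.568), both with overlap and with control 2 the lowest library. Without control 2 the log2 fold change was 0.35 for Asxl1 and 0.19 for Asxl2, and without control 1 that of Asxl2 was 0.72.

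Of the 4 MLL-type genes, 3 had positive values (background 53.9%) and 1 lay wholly higher in Sirt1-deleted libraries (background 6.64%). Kmt2a, the H3 methyltransferase gene rearranged in human MLL leukaemia, was at 30.3, 37.8, 44.9 and 40.4 CPM in Sirt1-deleted 1 to 4, against 22.1, 24.8, 17.9 and 33.9 CPM in controls 1 to 4 (log2 fold change 0.64 ± 0.23, edgeR adjusted p = 0.230). Sirt1-deleted 1 lay below control 4 and the other 3 lay above all controls. With the trend removed Kmt2a, which has 16.7 kb of exon, was at 0.26. Its partner menin, encoded by Men1, averaged 123 ± 11.9 CPM in Sirt1-deleted libraries and 91.7 ± 20.2 CPM in controls (log2 fold change 0.42 ± 0.17, edgeR adjusted p = 0.278).

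Kmt2c and Kmt2d, paralogues that methylate histone H3 at enhancers, had estimates of opposite sign. Kmt2c was at 29.9, 27.1, 34.3 and 31.5 CPM in Sirt1-deleted 1 to 4, against 23.7, 3.35, 21.8 and 21.8 CPM in controls 1 to 4, groups that do not overlap (log2 fold change 0.80 ± 0.51, edgeR adjusted p = 0.496). The estimate rests in part on control 2, with 93 counts, and was 0.41 (edgeR adjusted p = 0.305) without it. Kmt2d was at 33.8, 38.1, 43.7 and 40.1 CPM in the Sirt1-deleted libraries and 67.1, 28.8, 56.2 and 26.6 CPM in the controls, where the Sirt1-deleted libraries fell inside the range of the controls (log2 fold change -0.20 ± 0.31, edgeR adjusted p = 0.806).

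No demethylase gene separated the groups. Kdm1a (LSD1) averaged 85.2 ± 18.1 CPM in Sirt1-deleted libraries and 66.3 ± 18.7 CPM in controls (n = 4 each), with a log2 fold change of 0.36 (edgeR adjusted p = 0.537). Kdm5c, an H3 demethylase gene, averaged 38.9 ± 11.8 CPM in Sirt1-deleted libraries and 31.0 ± 8.33 CPM in controls (log2 fold change 0.33, edgeR adjusted p = 0.627). The enzymes that remove the PRC2 mark are encoded by Kdm6a, at 7.73 ± 4.23 CPM in Sirt1-deleted libraries and 6.97 ± 3.77 CPM in controls (log2 fold change 0.15, edgeR adjusted p = 0.933), and Kdm6b, at 30.5 ± 8.56 CPM in Sirt1-deleted libraries and 41.1 ± 12.4 CPM in controls (log2 fold change -0.43, edgeR adjusted p = 0.519). Kdm5c and Kdm6a are X-linked and known to escape X inactivation in female mice, and the labels do not give the sex of the animals.

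Of the other methyltransferase genes, Ehmt1 separated the groups and its partner Ehmt2 did not. Both encode enzymes that methylate histone H3 in silent euchromatin. Ehmt1 (ENSMUSG00000036893.17, chromosome 2, 24789928 to 24919614) was at 66.1, 90.3, 75.6 and 89.3 CPM in Sirt1-deleted 1 to 4, against 43.3, 63.3, 57.4 and 54.1 CPM in controls 1 to 4. The difference was 1.47-fold (log2 fold change 0.56 ± 0.17, edgeR adjusted p = 0.169), called by DESeq2 and limma-voom (adjusted p = 0.0421 and 0.0366), and 0.25 with the trend removed. Ehmt2 averaged 139.7 ± 5.76 CPM in Sirt1-deleted libraries and 119 ± 33.4 CPM in controls (log2 fold change 0.23, edgeR adjusted p = 0.625).

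Suv39h1, the heterochromatin methyltransferase gene, was at 48.3, 77.1, 68.2 and 79.0 CPM in Sirt1-deleted 1 to 4, against 49.2, 38.1, 57.9 and 53.2 CPM in controls 1 to 4 (log2 fold change 0.46 ± 0.20, edgeR adjusted p = 0.316). Sirt1-deleted 1 lay below 3 controls and the other 3 lay above all of them. A gene on the opposite strand overlaps 14.6% of its exonic bases. Dot1l, which MLL-rearranged human leukaemias depend on, averaged 35.1 ± 4.41 CPM in Sirt1-deleted libraries and 40.8 ± 13.7 CPM in controls (log2 fold change -0.22, edgeR adjusted p = 0.745). The transcription-coupled methyltransferase gene Setd2 averaged 23.0 ± 7.41 CPM in Sirt1-deleted libraries and 20.6 ± 3.84 CPM in controls (log2 fold change 0.16, edgeR adjusted p = 0.835), and both overlapped.

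Among the 5 acetyltransferase genes, 2 lay wholly higher in Sirt1-deleted libraries (background 6.64%). Kat6a (MOZ), needed for blood stem cells in mice, was at 31.1, 25.7, 28.0 and 23.8 CPM in Sirt1-deleted 1 to 4, against 18.2, 18.7, 17.2 and 19.7 CPM in controls 1 to 4 (log2 fold change 0.56 ± 0.18, edgeR adjusted p = 0.179; DESeq2 adjusted p = 0.035, limma-voom 0.116). Its controls lay close together, and every Sirt1-deleted library was above them. Kat2a (GCN5) was at 136, 167, 138 and 161 CPM in Sirt1-deleted 1 to 4, against 122, 98.7, 123 and 121 CPM in controls 1 to 4 (log2 fold change 0.37 ± 0.13, edgeR adjusted p = 0.198). With the trend removed Kat6a was at 0.31 and Kat2a at 0.29. The paralogous coactivator genes overlapped between groups, Crebbp at 48.1 ± 7.92 CPM in Sirt1-deleted libraries and 38.8 ± 6.89 CPM in controls (log2 fold change 0.31, edgeR adjusted p = 0.493) and Ep300 at 25.9 ± 6.16 CPM in Sirt1-deleted libraries and 22.3 ± 9.30 CPM in controls (log2 fold change 0.22, edgeR adjusted p = 0.803). Kat8 (MOF), which acetylates histone H4, averaged 25.4 ± 5.23 CPM in Sirt1-deleted libraries and 26.5 ± 4.09 CPM in controls (log2 fold change -0.059, edgeR adjusted p = 0.924), also with overlap.

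Of the remodelling genes, Smarca4, the ATPase gene of the SWI/SNF complex, averaged 254 ± 52.0 CPM in Sirt1-deleted libraries and 189 ± 32.0 CPM in controls (log2 fold change 0.43 ± 0.18, edgeR adjusted p = 0.294). Its values were 188, 311, 245 and 272 CPM in the Sirt1-deleted libraries and 178, 148, 214 and 215 CPM in the controls, with Sirt1-deleted 1 among the controls. Arid1a, another SWI/SNF subunit, averaged 84.4 ± 5.22 CPM in Sirt1-deleted libraries and 95.1 ± 32.5 CPM in controls (log2 fold change -0.17, edgeR adjusted p = 0.783). The NuRD ATPase gene Chd4 averaged 129.8 ± 10.6 CPM in Sirt1-deleted libraries and 144 ± 26.0 CPM in controls (log2 fold change -0.15, edgeR adjusted p = 0.692). Both were highest in controls 2 and 3 and overlapped.

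Without control 2 and Sirt1-deleted 1, the log2 fold changes of the members whose groups do not overlap were 1.34 for Ezh1, 1.13 for Cbx2, 1.06 for Cbx7, 0.63 for Cbx8, -0.80 for Bmi1, 0.53 for Bap1, 0.42 for Kmt2c, 0.68 for Ehmt1, 0.31 for Kat2a and 0.45 for Kat6a, all with the sign they have with 8 libraries. None was called by edgeR in that fit. For other members, some estimates moved when 1 library was left out. Without control 2 they were 0.19 for Rbbp4, 0.16 for Kdm1a, 0.21 for Kdm5c and 0.16 for Crebbp. Without Sirt1-deleted 4 they were 0.27 for Rbbp4 and 0.14 for Kdm5c. Crebbp was at 0.20 without Sirt1-deleted 3, Smarca4 at 0.28 without Sirt1-deleted 2 and Dnmt3b at 0.18 without control 1. In the other direction Rbbp4 was at 0.75 without control 4 and Kdm5c at 0.50 without control 1.

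Per length of exon the members spanned a wide range of levels. After Rbbp7 came Dnmt1, at 45.0 ± 5.35 in Sirt1-deleted libraries and 36.8 ± 7.92 in controls (CPM per kb), and Kat2a, at 43.3 ± 4.54 in Sirt1-deleted libraries and 33.4 ± 3.38 in controls. Tet1 was lowest in both groups, at 0.810 ± 0.444 in Sirt1-deleted libraries and 0.349 ± 0.252 in controls, below Kdm6a, at 0.922 ± 0.504 in Sirt1-deleted libraries and 0.831 ± 0.450 in controls, and the spreads of these neighbours overlap. In the order of levels Bmi1 had rank 33 of 43 in Sirt1-deleted libraries and 24 in controls, Kdm6b 27 and 19, Cbx7 30 and 38, and Ezh1 22 and 30.

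Ratios of related genes within a library, which barely depend on scaling between libraries, were compared for 5 pairs. The log2 ratio of Ezh1 over Ezh2 was -0.73, -0.60, -0.44 and 0.089 in Sirt1-deleted 1 to 4 and -1.85, -0.93, -2.01 and -1.34 in controls 1 to 4. The groups do not overlap, with means of -0.42 ± 0.36 in Sirt1-deleted libraries and -1.53 ± 0.49 in controls (SD, n = 4 each). The difference of 1.11 had an exact two-sided permutation p of 0.0286, the smallest that 70 assignments can give, and an adjusted p of 0.143 over the 5 pairs. It was 1.03 with the length and GC trend removed and 1.41 without the 2 libraries that stood apart.

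The other 4 ratios overlapped. Cbx7 over Cbx8 was 0.30, 0, 0.16 and -0.0022 in Sirt1-deleted 1 to 4 and -1.56, -2.43, -0.21 and 0.18 in controls 1 to 4 (exact permutation p = 0.114, adjusted p = 0.286), so controls 1 and 2 were far below the rest, and its difference of 1.12 was 0.64 without control 2. Dnmt3b over Dnmt3a averaged 0.21 ± 0.88 in Sirt1-deleted libraries and 0.85 ± 0.56 in controls (exact permutation p = 0.229, adjusted p = 0.381). Without Sirt1-deleted 1 that difference was -1.07 rather than -0.64. Asxl2 over Asxl1 averaged -1.16 ± 0.33 in Sirt1-deleted libraries and -0.91 ± 0.73 in controls (exact permutation p = 0.6, adjusted p = 0.6) and Kdm6b over Kdm6a 2.01 ± 1.02 in Sirt1-deleted libraries and 2.68 ± 1.47 in controls (exact permutation p = 0.486, adjusted p = 0.6).

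**Figure D5:**
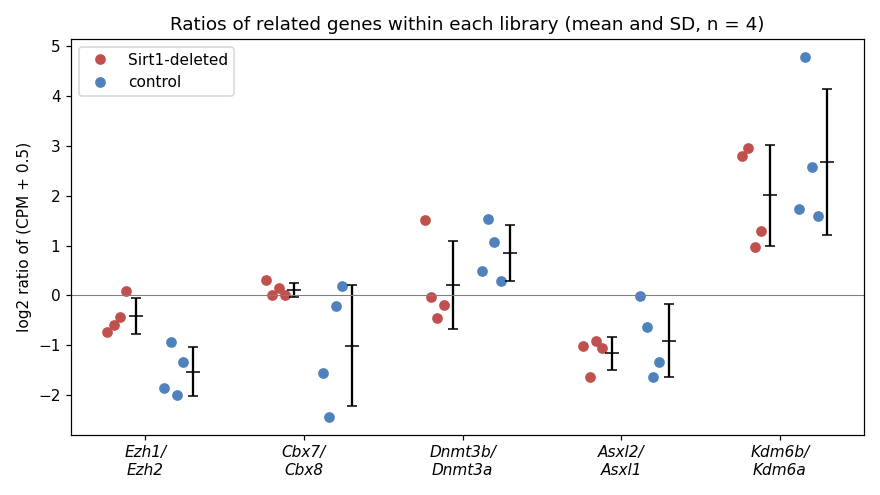
Log2 ratio of (CPM + 0.5) of 5 pairs of related genes in each library (points) with mean and SD (n = 4), Sirt1-deleted left of control. Ezh1 over Ezh2 separates the groups, from -0.73 to 0.089 in Sirt1-deleted libraries and from -2.01 to -0.93 in controls, and the other 4 pairs overlap.

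Other genes of the same machinery, 119 listed by complex, included 71 with positive log2 fold changes (background 53.9%). Of the 119, 118 were found and tested, and edgeR called none at an adjusted p under 0.05, while DESeq2 called 10 (background 7.96% in either direction) and limma-voom 8 (background 8.03%). At an unadjusted p under 0.05 there were 14 higher (11.9%, background 7.55%) and 9 lower (7.63%, background 8.6%). The median log2 fold change was 0.10, and 13 lay wholly higher (11.02%, background 6.64%) and 3 wholly lower (2.54%, background 6.44%) in Sirt1-deleted libraries. The smallest p belonged to Arid1b, a SWI/SNF subunit, at 67.0 ± 16.6 CPM in Sirt1-deleted libraries and 24.7 ± 4.34 CPM in controls (log2 fold change 1.44 ± 0.22, edgeR adjusted p = 0.0619), Chd7, a remodeller, at 14.4 ± 2.10 CPM in Sirt1-deleted libraries and 41.8 ± 15.03 CPM in controls (log2 fold change -1.54 ± 0.28, edgeR adjusted p = 0.0892), and Kdm5b, an H3 demethylase, at 43.7 ± 14.5 CPM in Sirt1-deleted libraries and 13.9 ± 3.26 CPM in controls (log2 fold change 1.65 ± 0.31, edgeR adjusted p = 0.0908).

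By complex, the other demethylases had the highest median (0.37, 10 of 13 positive, background 53.9%), with Kdm5a at a log2 fold change of 0.53 and Jmjd1c at 0.48. The other acetyltransferase genes (0.26, 10 of 13 positive) included Brpf3, a scaffold of such complexes (2.499 ± 0.82, at 8.56 ± 2.38 CPM in Sirt1-deleted libraries and 1.52 ± 1.31 CPM in controls), Kat7 (0.65) and Ncoa3 (0.77). Other methyltransferases (0.02) held Suv39h2, the paralogue of Suv39h1, at -1.05 ± 0.31 and with every Sirt1-deleted library below every control, beside Carm1 (0.64) and Ash1l (0.84). Other DNA methylation genes (-0.016) held the DNA glycosylase gene Mbd4 (0.87), the cofactor gene Dnmt3l (-1.86) and the reader gene Mbd2 (-0.45).

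The other MLL-type genes (0.04) had their smallest p at Kmt2e (0.50), Dpy30 (-0.56) and Rbbp5 (0.45), and the other remodellers (0.15) held Daxx (-0.49) besides the 2 named. Other PRC1 genes (0.03), with Pcgf3 (0.62), Phc1 (0.86) and Scmh1 (1.15), had no member at an unadjusted p under 0.05. Other PRC2 genes (-0.09) had Epop (-0.72), Aebp2 (0.32) and Mtf2 (0.27), all accessory subunits. None of the genes in these lists had an edgeR adjusted p under 0.0619.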

How the data were processed

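RNA from sorted LSK cells was sequenced in 8 libraries. Per the labels' protocols, cDNA came from the SMARTer Ultra Low Input kit (v4) and was indexed with Nextera XT, a combination that keeps no strand and uses no molecular identifiers. The authors deposited raw counts of reads per gene. The submitters' processing notes name Trim Galore 0.5.0, STAR 2.5.3, HTSeq 0.9.1, DESeq2 1.20.0 and build GRCm38. Not given in the sources used here: annotation release and counting settings. The 5 summary rows, 33.2 to 40.6% of each library's total (of which reads with several alignments 24.1 to 32.3% of the total), were left out of library sizes and tests. Symbols, gene positions and exonic lengths came from GENCODE M21 (GRCm38). Symbols were found for 48349 of 48795 identifiers (99.1%), matched without their version.

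Genes were compared by edgeR 4.0.16 (in R 4.3.3, with limma 3.58.1) using its two-sided quasi-likelihood F test. Library sizes were scaled by TMM, low counts removed by filterByExpr, dispersions estimated robustly, and p-values adjusted after Benjamini and Hochberg across all 14178 tested genes. An adjusted p under 0.05 was a call. The SE was taken as |log2 fold change| / sqrt(F). CPM are counts over TMM library sizes, and the biological coefficient of variation was 0.653. DESeq2 1.42.0, limma-voom, other filters and scaling, and fits without single libraries were alternatives. In another the trend of log2 CPM on exonic length and GC content (splines, 5 degrees of freedom each) was removed from each library. The edgeR, DESeq2 and limma-voom fits were tested on simulated data. Ratios of paired genes, log2 of CPM plus 0.5, were compared by an exact two-sided permutation test. Members and lists were chosen with earlier results of these data known. All 43 members are named, and of other regulators at most 3 per list of smallest p. Some items are not reported here. Replicate numbers are names only, given in accession order. The column of control 4 ends in other letters than its title and was matched by its first part, which no other title shares. Nothing in the labels beyond "biological replicates" says how the animals were drawn. The p-values therefore only weigh the difference between groups against the spread between these libraries within a group.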

Additional observations from a re-analysis of the deposited data

Results flagged for a closer look

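In 7 of the 86 sets of 4 libraries (each of the 43 members in each group), 1 library stood far from the other 3, by Dixon's test at its 95% level. Chance alone flags about 1 in 20 such sets. Sirt1-deleted 1 accounted for 3 of them. Dnmt3a was at 36.4 CPM there and at 104 to 110.4 CPM in the other Sirt1-deleted libraries. Kdm1a was at 58.3 CPM in that library, against 92.4 to 97.04, and Arid1a was high in it at 92.2 CPM, against 81.2 to 82.7.

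Control 2 was low for Kmt2c, at 3.35 CPM where the other controls had 21.8 to 23.7, and for Kat2a, at 98.7 CPM where the others had 121 to 123. Kdm5c was high in control 1, at 43.4 CPM against 26.2 to 28.2 in the other controls. Bmi1 was at 12.4 CPM in Sirt1-deleted 4 and at 10.4 to 10.6 CPM in the other Sirt1-deleted libraries, a gap that is large only because those 3 lie so close together.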

How the results depend on the processing

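The median log2 fold change of the members (0.31) stayed within 0.20 to 0.37 with any 1 library left out and turned to -0.095 with the length and GC trend removed, where the median of all genes was -0.20. The count of members called (0) was 5 with DESeq2, 4 with limma-voom, 1 without control 2 and Sirt1-deleted 1, and 0 to 1 with any 1 library left out. For the other regulators (0) these counts were 10, 8, 2 and 0 to 2. Over all genes 12 were called, 7 higher and 5 lower. The count was 1129 with DESeq2 (437 higher, 692 lower), 1139 with limma-voom (376 and 763), 311 without the 2 libraries (76 and 235), 1 in titles starting with 2 and 4, 0 with the trend removed, 0 with detected genes as a covariate, and 0 to 451 with any 1 library left out. With at least 1 CPM in 4 libraries it was 9 higher and 9 lower. The difference of the Asxl2 over Asxl1 ratio ran from -0.50 to 0.047 and that of Kdm6b over Kdm6a from -1.03 to 0.031 with any 1 library left out; the other 3 ratios kept their sign in all alternatives run.

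Of the 43 members, 23 kept the sign of their log2 fold change in all 17 alternatives, and 30 in all but the removal of the trend. Signs with the trend removed are here those of the estimate itself, not relative to the median of all genes in that fit (-0.20). By that measure the sign turned for Dnmt1 (-0.20), Dnmt3b (-0.056), Tet2 (-0.33), Tet3 (-0.25), Ezh2 (-0.27), Rbbp7 (-0.095), Jarid2 (-0.42), Kdm1a (-0.024), Kdm5c (-0.17), Kdm6a (-0.13), Setd2 (-0.29), Ehmt2 (-0.16), Ep300 (-0.44), Crebbp (-0.21) and Smarca4 (-0.011). Relative to that median, Dnmt1 (0.0025), Dnmt3b (0.14), Rbbp7 (0.10), Kdm1a (0.18), Kdm5c (0.026), Kdm6a (0.065), Ehmt2 (0.040) and Smarca4 (0.19) stayed positive, and the others listed were negative. With detected genes as a covariate it turned for Tet2 (-0.078), Jarid2 (-0.67), Ring1 (0.12), Kdm6a (-0.39), Setd2 (-0.24) and Arid1a (0.16), with limma-voom for Ezh2 (-0.044), Rbbp7 (-0.0045), Kmt2d (0.0034) and Arid1a (0.021), in titles starting with 2 and 4 for Ep300 (-0.0695), and without the 2 libraries for Tet3 (-0.029), Ezh2 (-0.027) and Kdm6a (-0.026). With any 1 library left out, the members that turned ranged as follows: Tet3 (-0.079 to 0.32), Ezh2 (-0.12 to 0.14), Rbbp7 (-0.047 to 0.13), Jarid2 (-0.16 to 0.46), Ring1 (-0.17 to 0.054), Rnf2 (-0.011 to 0.33), Kmt2d (-0.40 to 0.032), Kdm6a (-0.29 to 0.33), Setd2 (-0.023 to 0.31) and Kat8 (-0.20 to 0.026). The causes were not tested. No paired analysis was possible because the labels number no replicates and do not say what the letter in the titles, found once in each group, stands for. Members had 27 to 13285 counts per library. What part counting error has in the spread between libraries was not tested, and no molecular identifiers were used.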
